A study of Mus musculus with 8 samples.

Results

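The genes described here are 56 mouse genes of DNA replication and mitosis, taken by symbol from a list. The list runs from the origin licensing factors and the replicative helicase through DNA polymerases and nucleotide supply to the mitotic kinases, the spindle checkpoint and cytokinesis. All 56 were among the 23337 gene symbols of the deposited values, and all 56 passed the filter on low values that left 11820 genes for testing. RNA came from murine oviductal epithelial (MOE) cells, an established line of FVB background from the mouse counterpart of the human fallopian tube. The line was taken off the plate with trypsin once confluent and seeded on collagen in 2D form (4 libraries) or as 3D gels (4 libraries). Both groups spent 6 h in MOE medium that lacked EGF, a growth factor that drives proliferation in many epithelia, so that no library represents cells with EGF. The series asks how cancer that arises in the fallopian tube colonizes the ovary. Whether the replicates of a group were grown separately is not stated in the labels, and the p-values below therefore describe variation among these 8 libraries, part of which may be technical.

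A cell copies its DNA in S phase and divides it in M phase. MCM proteins are loaded onto origins in G1 by Cdc6 and Cdt1, and become an active helicase when Cdc45 and the GINS proteins join them. Many of the genes for this machinery are transcribed under E2F factors from late G1 on, while genes for mitosis peak later under B-Myb, FOXM1 and the DREAM-related MuvB complex, which binds the CHR element. In a cycling culture the mRNAs of both waves are present together, and in quiescent cells both are low. They are therefore widely used as a readout of how many cells in a sample are cycling. In bulk RNA, fewer cells of one kind and less RNA per cell cannot be told apart.

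Depth ranged from 15692699 reads (2D replicate 4) to 25862036 reads (2D replicate 3), and 3D replicate 4 had 18413620. Values are normalized counts, that is reads divided by 1 size factor per library. The keratins Krt7, Krt8 and Krt18 and the Mullerian factor Pax8 were abundant in every library, whereas Epcam, Cdh1 and the oviductal glycoprotein Ovgp1 stayed at or below 1.26, 5.24 and 1.37 CPM, that is reads scaled to a common library total. Marker lists of other cell types summed to no more than 86.6 CPM for ciliated epithelium, 38.9 for endothelium and 30.6 for leukocytes. Their highest sums were 19.5 CPM for stroma, 17.6 for smooth muscle and 16.6 for intestine. The liver list reached 593 CPM, most of it haptoglobin (Hp), which was at 574 CPM in 3D replicate 1.

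The libraries numbered 4 stood apart from the other 6. Every one of the 56 genes was higher in 2D replicate 4 than in 2D replicates 1 to 3, and every one was higher in 3D replicate 4 than in 3D replicates 1 to 3. Over all tested genes, replicate 4 exceeded replicates 1 to 3 for 23.5% in 2D, for 38.5% in 3D and for 17.8% in both. Together the 56 genes took 0.174% to 0.216% of the reads in 2D replicates 1 to 3 and 0.666% in 2D replicate 4. In 3D they took 0.124% to 0.210% in replicates 1 to 3 and 0.685% in replicate 4. The share was thus several times higher in both libraries numbered 4, and the other 6 libraries of the 2 substrates overlapped. Replicate 4 was singled out with earlier results of these data known, so its departure is described without a test.

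The departure of a library is defined here, per gene, as log2(normalized count + 1) minus the mean of the same quantity in other libraries of its substrate. For 2D replicate 4 the median departure of the 56 genes from replicates 1 to 3 was 1.85 (a 3.60-fold difference), with a range from 0.49 to 3.01. For 3D replicate 4 it was 1.96 (3.90-fold), with a range from 0.55 to 3.28. The median departure over all tested genes was 0.00 and 0.01. A departure above 1, or more than 2-fold, in both substrates was seen for 50 of the 56 genes and for 5.04% of all tested genes. The remaining 6 were Mcm2, Gins2, Gins4, Pold1, Rfc3 and Tpx2. Across the 56 genes the departures of both replicates 4 ran in parallel (Pearson r = 0.86, Spearman rho = 0.85, n = 56 genes), as they did across all 11820 tested genes (Pearson r = 0.81). These are correlations across genes within 2 pairs of library sets, and genes are not independent replicates.

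**Figure D1:**
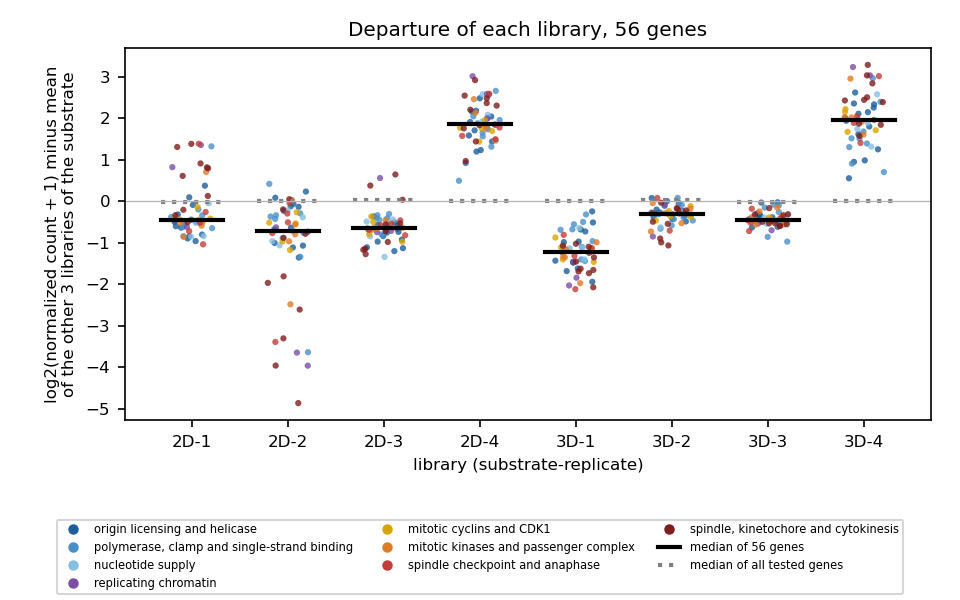
Departure of each library (x axis) from the mean of the other 3 libraries of its substrate, in log2(normalized count + 1), for the 56 genes (points, coloured by role) with their median (black bar) and the median of all tested genes (dotted bar). The points of 2D replicate 4 (median 1.85) and 3D replicate 4 (median 1.96) all lie above 0, and those of 3D replicate 1 (median -1.23) all lie below 0.

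Among the other libraries, 3D replicate 1 was the lowest. It lay below 3D replicates 2 to 4 for 53 of the 56 genes, against 29.5% of all tested genes, with a median departure of -1.23 from the other 3 libraries. Of all 8 libraries, 3D replicate 1 was the lowest for 35 genes and 2D replicate 2 for 17. The top 2 libraries were those numbered 4 for 55 genes. The exception was Pold1, the catalytic subunit of DNA polymerase delta, for which 2D replicate 2 (2145 normalized counts) exceeded 3D replicate 4 (1915).

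**Figure D2:**
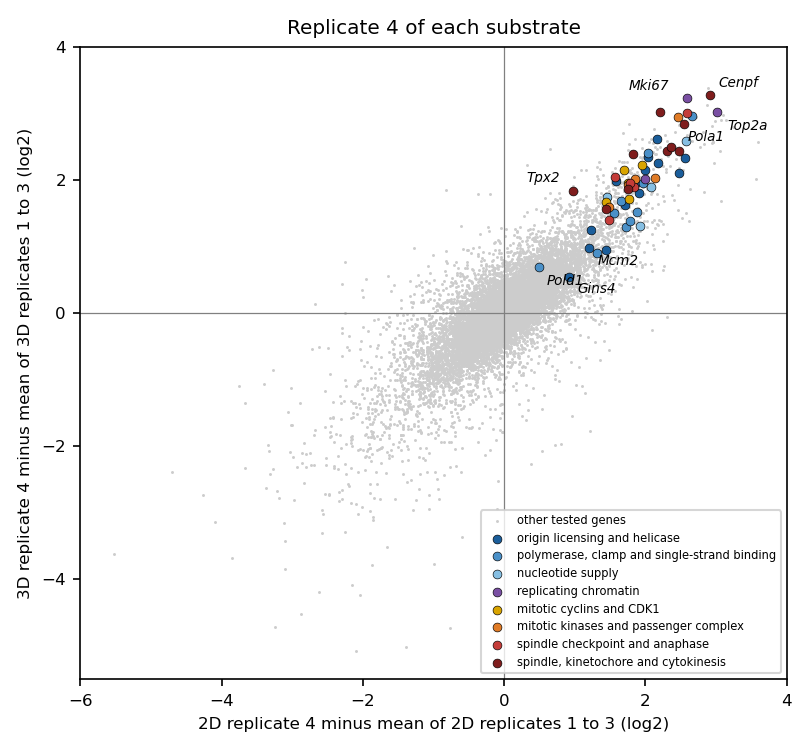
Departure of replicate 4 from the mean of replicates 1 to 3 in 2D (x axis) and in 3D (y axis), in log2(normalized count + 1), for the 56 genes (coloured by role) and the other tested genes (grey). The 56 genes lie in the upper right, from Pold1 (0.49 and 0.70) to Cenpf (2.92 and 3.28).

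Sums of some marker lists also set the libraries numbered 4 apart, and those of others did not. In the libraries numbered 4 the 6 liver markers summed to 30.01 and 30.3 CPM, against 99.6 to 593 in the other 6, most of it haptoglobin (Hp). The 7 stroma markers summed to 3.44 and 4.24 CPM against 6.51 to 19.5, and the 5 smooth muscle markers to 3.53 and 5.10 against 6.45 to 17.6. The 5 endothelium markers summed to 14.2 and 17.16 CPM, against 17.24 to 38.9. Sums of the other lists overlapped. They were 7.39 and 18.7 against 13.1 to 30.6 for leukocytes, and 1.68 and 3.76 against 1.99 to 16.6 for intestine. For ciliated epithelium they were 67.4 and 73.9 against 16.6 to 86.6. Col1a1 and Dcn gave most of each stroma sum, and Kdr most of each endothelium sum. Cnn1 gave the largest part of each smooth muscle sum. Kdr alone overlapped, at 16.94 CPM in 3D replicate 4 and 16.9 in 3D replicate 1. Within the stroma list, Col3a1 (0.446 CPM) and Pdgfra (0.382 CPM) were higher in 2D replicate 4 than in 2D replicates 1 to 3. Pdgfra was also highest in replicate 4 on 3D, at 0.978 CPM against 0.967 in 3D replicate 1. Lum was at no more than 3 reads in any library. The part of these differences in the result was not tested. After trends with GC content were removed in each library, the median departures were 1.88 in 2D and 1.95 in 3D, and replicate 4 was the highest for all 56 genes on both substrates.

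Helicase genes held 14 of the 56, with median replicate 4 departures of 1.88 in 2D and 1.96 in 3D. Mcm6 encodes a subunit of the MCM ring. It stood at 1083, 814, 948 and 4270 normalized counts in 2D replicates 1 to 4 and at 489, 905, 824 and 3418 in 3D replicates 1 to 4. Mcm5, another subunit, stood at 2260, 3890, 2090 and 10509 in 2D and at 894, 1731, 1506 and 5869 in 3D. Both were highest in replicate 4 of each substrate and lowest in 3D replicate 1. Mcm10, which helps the helicase to start, was at 254, 158, 216 and 1218 in 2D and at 78.1, 159.8, 159.5 and 638 in 3D. Its departures of 2.56 and 2.33 gave the highest mean departure of the helicase group (2.45). Mcm2 moved less, with 2917, 3549, 2812 and 7047 in 2D and 1957, 2977, 2411 and 4771 in 3D, departures of 1.20 and 0.98.

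The loading factor Cdc6 was at 252, 214, 159 and 919 normalized counts in 2D and at 26.1, 62, 60.6 and 289 in 3D. The first 3 libraries of each substrate did not overlap, and 3D replicate 4 lay above all of 2D replicates 1 to 3. Gins4 and Gins2, subunits of the GINS complex, had the second smallest and the fifth smallest departure of all 56 averaged over both substrates. Gins4 was at 626, 782, 668 and 1307 in 2D and at 682, 673, 761 and 1033 in 3D. Gins2 was at 460.5, 338, 341 and 1021 in 2D and at 278, 350.1, 391 and 649 in 3D, and exons of the antisense gene Gse1 overlap 67.3% of its exonic bases, so that without a known strand setting its reads are uncertain. Gins1, another GINS subunit, ranged from 31.1 to 67.2 in the 6 libraries numbered 1 to 3, with 202 in 2D replicate 4 and 249 in 3D replicate 4.

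In the polymerase group of 10 genes the median departures were 1.76 in 2D and 1.51 in 3D. Pcna, the sliding clamp, was at 332, 274, 259 and 1055 normalized counts in 2D and at 335, 405, 370.3 and 1057 in 3D, so that both libraries numbered 4 had nearly the same level. Pola1, the catalytic subunit of DNA polymerase alpha, was at 138, 9.56, 57.7 and 278 in 2D and at 47.6, 73.3, 59.7 and 469 in 3D. It departed most in this group (2.66 and 2.96), but on 2D its 3 other libraries also spanned 9.56 to 138. Pold1 had the smallest departures of all 56 genes (0.49 and 0.70), with 1326, 2145, 1398 and 2229 in 2D and 934, 1386, 1262 and 1915 in 3D. Rfc3 and Rfc5 encode subunits of the clamp loader. Rfc3 was at 494, 497, 450 and 1194 in 2D and at 476, 449, 519 and 899.9 in 3D, and Rfc5 at 468, 511, 402 and 1440 in 2D and at 239, 361, 370.3 and 1019 in 3D. For both, 2D replicate 4 was above 3D replicate 4.

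Genes of nucleotide supply had median departures of 2.00 in 2D and 1.81 in 3D. Rrm2, the regulated subunit of ribonucleotide reductase, was at 1813, 1369, 1844 and 7029 normalized counts in 2D and at 1378, 2170, 1878 and 6592 in 3D. Thymidine kinase (Tk1) was at 205, 260.4, 158 and 1221 in 2D and at 116, 173, 181 and 921 in 3D, a departure of 2.58 on each substrate. Thymidylate synthase (Tyms) departed by 1.92 and 1.31, and Rrm1 by 1.45 and 1.74.

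The 3 genes placed under replicating chromatin had the highest median departures of the 8 roles, 2.59 in 2D and 3.03 in 3D. Mki67, the proliferation antigen Ki-67, was at 212, 16.7, 185 and 533 normalized counts in 2D and at 163, 274, 323 and 2299 in 3D. Top2a, the topoisomerase that untangles sister DNA, was at 1494, 109.9, 509 and 3538 in 2D and at 260.5, 643, 522 and 3637 in 3D. For both genes 2D replicate 2 was by far the lowest library, at 16.7 and 110, which lowered the reference of their 2D departures. Over the mean normalized count of 2D replicates 1 to 3, 2D replicate 4 was 3.86-fold for Mki67 and 5.02-fold for Top2a. For Tk1 it was 5.87-fold. Mki67 was far higher in 3D replicate 4 (2299) than in 2D replicate 4 (533), whereas Top2a was nearly equal in the 2 libraries. Uhrf1, which carries DNA methylation through replication, departed by 2.00 and 2.01.

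**Figure D3:**
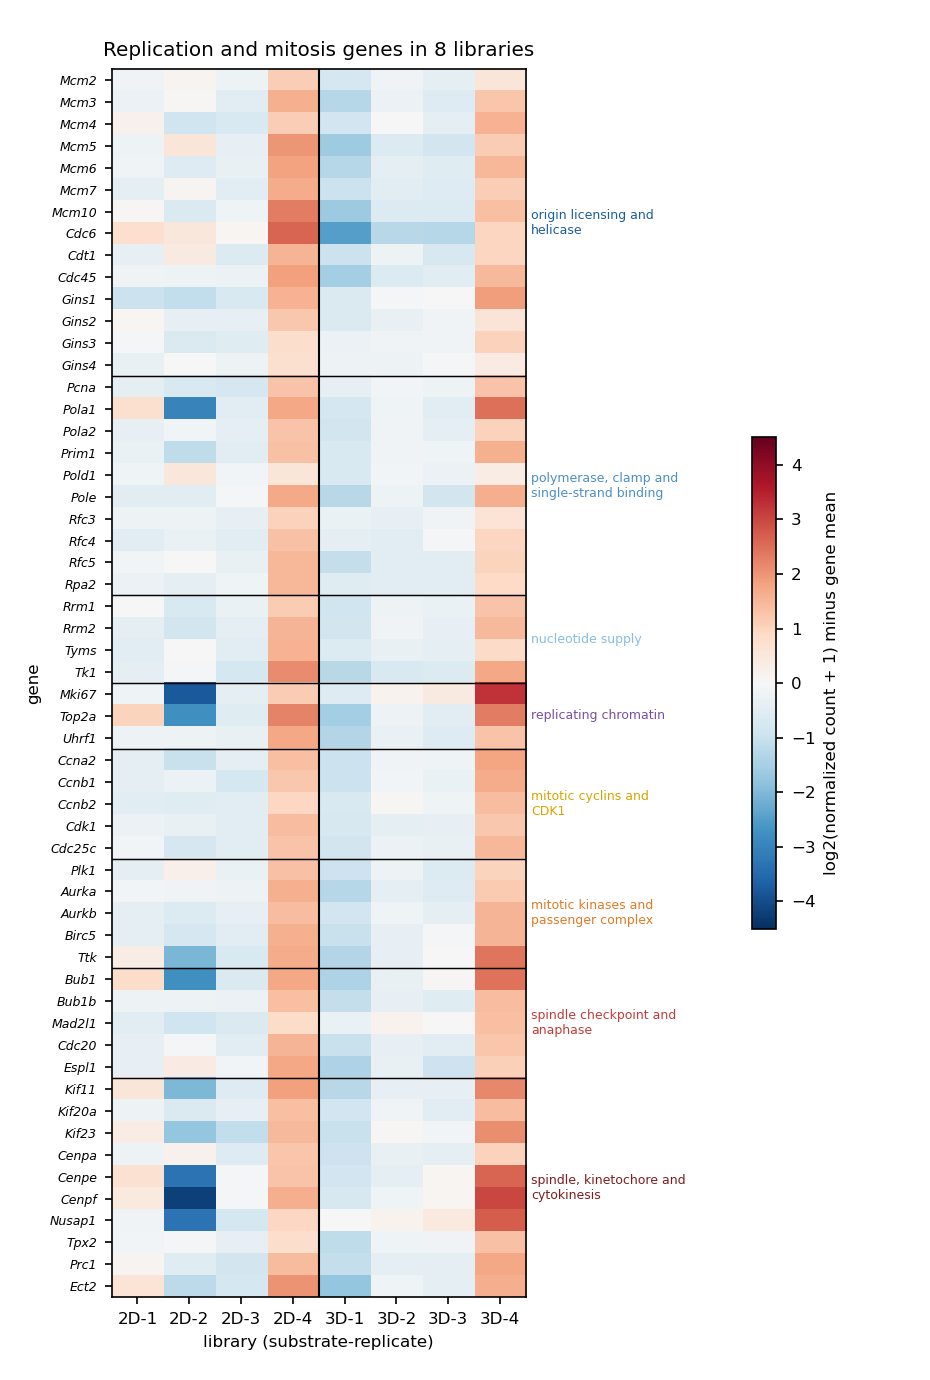
Deviation of each library (columns) from the gene's mean over 8 libraries, in log2(normalized count + 1), for the 56 genes (rows, grouped by role). Columns 2D-4 and 3D-4 are red throughout, 3D-1 is mostly blue, and in 2D-2 a subset with Cenpf, Mki67, Cenpe, Pola1, Top2a, Bub1 and Nusap1 is dark blue.

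Mitotic cyclins and CDK1 had median departures of 1.76 in 2D and 1.96 in 3D. Cdk1, the kinase that drives entry into mitosis, was at 2041, 1943, 1700 and 6447 normalized counts in 2D and at 1462, 1807, 1904 and 5611 in 3D. Ccnb1, its cyclin B1 partner, was at 112, 123, 84.6 and 342 in 2D and at 74.7, 138, 119 and 480.1 in 3D. The 6 libraries numbered 1 to 3 lay close together for both genes, between 1462 and 2041 for Cdk1 and between 74.7 and 138 for Ccnb1. Ccnb2 departed by 1.44 and 1.67 and Ccna2 by 1.95 and 2.22.

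The mitotic kinases and the passenger complex had median departures of 1.85 and 2.02. Aurka, Aurkb and Birc5, which encode Aurora kinases A and B and survivin, departed by 1.76, 1.85 and 2.13 in 2D and by 1.92, 2.02 and 2.03 in 3D. Plk1 departed by 1.48 and 1.60 and the checkpoint kinase Ttk by 2.46 and 2.95. Among genes of the spindle checkpoint and anaphase, Cdc20, which activates the anaphase-promoting complex, was at 980.4, 1222, 930.1 and 3717 normalized counts in 2D and at 639, 987, 908 and 3070 in 3D. Bub1, a checkpoint kinase, was at 168, 13.1, 60.1 and 316 in 2D and at 35.1, 74.2, 98 and 520.3 in 3D. Mad2l1, the checkpoint protein MAD2, was at 371, 284, 334 and 924 in 2D and at 424, 590.2, 520.5 and 1342 in 3D. Separase (Espl1), which cleaves cohesin, was at 566, 951, 678 and 2449 in 2D and at 279.7, 578, 382 and 1541 in 3D. All 4 were highest in replicate 4 of their substrate.

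Genes of the spindle, the kinetochore and cytokinesis had median departures of 2.25 in 2D and 2.44 in 3D. Cenpf, a large kinetochore protein, had the highest departure of all 56 averaged over both substrates. It was at 142, 4.78, 100.4 and 329.7 normalized counts in 2D and at 63.4, 91.7, 113 and 856 in 3D. Its 2D replicate 2 rested on 4 reads. Over the mean normalized count of replicates 1 to 3, its replicate 4 was 4.00-fold in 2D and 9.58-fold in 3D. Nusap1, a spindle microtubule protein, was at 158, 16.7, 99.7 and 337 in 2D and at 178, 195, 236 and 1147 in 3D. The 3D libraries 1 to 3 of Nusap1 lay above 2D libraries 1 to 3. The motor Kif11 departed by 2.55 and 2.84, and Tpx2, which activates Aurora A at the spindle, by 0.97 and 1.84. Exons of the antisense gene Cdc23 overlap 29.3% of the exonic bases of Kif20a, a motor of cytokinesis (departures 1.76 and 1.87).

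Per kilobase of exon, the mean level on 2D was highest for Mcm5 (1174 normalized counts per kb), Rrm2 (1088) and Aurka (999). On 3D it was highest for Rrm2 (1084), Ccnb2 (874) and Cdc20 (750). The lowest levels were those of Cenpf (9.35 per kb on 2D and 18.2 on 3D) and Pola1 (13.7 and 18.4). Mki67 was also low, at 23.5 and 76.0 per kb. Of 55 pairs of neighbours in this order, 0 on 2D and 0 on 3D differed by more than the larger of their SDs over the 4 libraries.

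The promoters of the 56 genes were searched for 3 elements known from cell-cycle genes. The 56 were listed as such genes, so higher shares than over all promoters follow from the list and say nothing about these libraries. RefSeq promoters (GRCm38.p6, 250 bases before to 50 after the start site) were found for 46 of the 56 genes, 50 promoters in all. The CHR element was searched as TTTGAA or TTCGAA, the CCAAT box as CCAAT, and the E2F site as TTCCCGC, as TTCGCGC, as TTGGCGC or as TTGCCGC, each on either strand. E2F matches can overlap each other, and the complement of CCAAT shares letters with TTGGCGC. A CHR match was present in 48.0% of the 50 promoters, against 13.6% of the promoters of tested genes and 19.2% of all promoters in the table. A CCAAT match was present in 78.0%, against 37.7% and 37.4%, and an E2F match in 46.0%, against 16.9% and 9.57%. Counted as replication genes were the helicase, polymerase, nucleotide supply and replicating chromatin roles. The last of these holds Mki67, Top2a and Uhrf1, and the promoters of Mki67 and Top2a each had a CHR match. Of the 28 promoters of replication genes so counted, 67.9% had an E2F match and 25.0% a CHR match. Of the 22 promoters of mitotic genes, 18.2% had an E2F match and 77.3% a CHR match. A match is a description of letters and not evidence of binding.

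The 4 promoters below show these arrangements. They were chosen for a replication gene with many E2F matches (Mcm6), the replication gene that differed most between the substrates (Cdc6), a mitotic gene (Cdc20) and a gene of very high departure (Top2a). Capitals mark every CHR, CCAAT and E2F match, and each is printed 5′ to 3′ on the gene's strand. They lie at chr1:128359656-128359955 (minus strand) for Mcm6, chr11:98907901-98908200 (plus) for Cdc6, chr4:118437294-118437593 (minus) for Cdc20 and chr11:99024140-99024439 (minus) for Top2a.
Mcm6: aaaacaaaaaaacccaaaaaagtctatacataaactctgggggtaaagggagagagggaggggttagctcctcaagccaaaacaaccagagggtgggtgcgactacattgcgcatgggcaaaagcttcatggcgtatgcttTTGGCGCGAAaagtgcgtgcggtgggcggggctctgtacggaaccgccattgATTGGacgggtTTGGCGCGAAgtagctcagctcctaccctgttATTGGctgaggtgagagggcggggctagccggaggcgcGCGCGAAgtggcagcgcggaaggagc
Cdc6: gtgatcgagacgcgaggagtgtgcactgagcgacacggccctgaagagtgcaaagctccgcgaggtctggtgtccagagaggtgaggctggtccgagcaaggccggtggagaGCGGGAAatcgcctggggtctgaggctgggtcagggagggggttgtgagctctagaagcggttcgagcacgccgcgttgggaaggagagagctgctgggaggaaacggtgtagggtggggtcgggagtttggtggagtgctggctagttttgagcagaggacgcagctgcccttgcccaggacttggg
Cdc20: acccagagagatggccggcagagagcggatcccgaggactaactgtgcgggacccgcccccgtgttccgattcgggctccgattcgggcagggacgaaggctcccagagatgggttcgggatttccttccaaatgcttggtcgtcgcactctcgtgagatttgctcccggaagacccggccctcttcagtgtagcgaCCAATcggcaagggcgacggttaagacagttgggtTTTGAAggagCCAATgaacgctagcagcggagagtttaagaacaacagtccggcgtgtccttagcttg
Top2a: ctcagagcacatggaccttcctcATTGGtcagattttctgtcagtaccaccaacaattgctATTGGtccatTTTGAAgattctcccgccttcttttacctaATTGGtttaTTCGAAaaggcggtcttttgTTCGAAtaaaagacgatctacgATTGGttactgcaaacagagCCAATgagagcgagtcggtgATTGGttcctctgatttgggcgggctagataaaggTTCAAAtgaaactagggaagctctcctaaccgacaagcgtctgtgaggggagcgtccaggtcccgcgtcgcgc
Mcm6 carried 5 E2F matches and 2 CCAAT matches, with overlapping E2F pairs that begin 109 and 46 bases before the start site. Cdc6 carried 1 E2F match, 138 bases before the RefSeq start, and no CHR or CCAAT match in this window. The GENCODE M21 gene model of Cdc6 starts at chr11:98907801, upstream of the whole window. Bases before that start were not searched, so the absence of a match holds for the printed bases only. In Cdc20 a CHR match 18 bases before the start lies between CCAAT matches at 53 and 8 bases before it. Top2a carried 4 CHR and 6 CCAAT matches. All 4 genes were highest in replicate 4 of each substrate, as were all 56, so this cannot tell genes with and without a match apart. Departures were 2.18 and 2.26 for Mcm6, 2.16 and 2.62 for Cdc6, 1.84 and 1.89 for Cdc20 and 3.01 and 3.03 for Top2a.

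Between the substrates, none of the 56 genes passed an adjusted p of 0.05 in limma over the 8 libraries, 0 higher and 0 lower on 3D collagen. Of all 11820 tested genes 5.72% passed, 2.33% higher and 3.39% lower on 3D. At an unadjusted limma p under 0.05 there was 1 gene of the 56 (Cdc6), against 24.2% of all tested genes. edgeR and DESeq2 on the recovered reads also called 0 of the 56, with 1 each at an unadjusted p under 0.05. DESeq2 gave no adjusted p for Mcm10 and Tk1. With a replicate block in limma, 3 of the 56 were lower (Cdc6, Mcm5 and Espl1), against 742 of all 11820 tested genes. The replicate numbers were not taken as pairs, as described below. No gene of the 56 had groups of 4 that did not overlap, against 18.4% of all tested genes. Log2 fold changes (3D minus 2D) were below 0 for 33 and above 0 for 23, with a median of -0.09, beside 0.02 over all tested genes.

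In the fit without covariates these libraries left wide margins for the 56 genes. Their median SE was 0.58 in that fit and 0.21 with the replicate block, against 0.25 and 0.20 over all tested genes. The intervals below are from the fit without covariates. The median 95% interval of the log2 fold change reached 1.31 to either side, against 0.56 over all tested genes. The interval held a 2-fold difference in at least 1 direction for 53 of the 56. Cdk1 had a log2 fold change of -0.16 with an interval from -1.31 to 1.00, Pcna 0.27 with -0.87 to 1.42, and Ccnb1 0.14 with -1.22 to 1.51. The narrowest intervals belonged to Gins4 (-0.06, from -0.63 to 0.51) and Pold1 (-0.38, from -0.95 to 0.20).

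Cdc6 showed the smallest adjusted p of the 56. Its mean was 386 ± 357 normalized counts on 2D and 109 ± 121 on 3D (SD, n = 4 per group). The log2 fold change of -2.01 had an SE of 0.75. Its limma adjusted p was 0.146 and lay between 0.00692 and 0.307 under the alternatives. Without 3D replicate 4 it was -2.66 (limma adjusted p = 0.0497), and without both libraries numbered 4 it was -2.12 (SE 0.40, limma adjusted p = 0.0300). In those 6 libraries Cdc6 ranged from 159 to 252 on 2D and from 26.1 to 62.0 on 3D. No other gene of the 56 was called in these settings. Of all tested genes 2.03% were lower without 3D replicate 4. Without both libraries numbered 4, 3.83% were called and 2.34% were lower.

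The other genes with the smallest adjusted p did not pass either. Nusap1 differed by 1.66 on the log2 scale with an SE of 0.90 (limma adjusted p = 0.30), and Mki67 by 1.62 with an SE of 1.09 (limma adjusted p = 0.401). Without 2D replicate 2, in which both were lowest, these were 0.83 and 0.63 (limma adjusted p = 0.511 and 0.704). Mcm5 had -0.95 (SE 0.64), Pold1 -0.38 (SE 0.26), Espl1 -0.81 (SE 0.59) and Mad2l1 0.60 (SE 0.44), with limma adjusted p from 0.402 to 0.443. Under the alternatives the adjusted p lay between 0.0158 and 0.653 for Mcm5 and between 0.0154 and 0.702 for Espl1. For both genes the lowest value came from limma with the replicate block. Mcm2 (-0.40), Rfc5 (-0.52) and Mcm10 (-0.76) had limma adjusted p from 0.522 to 0.579.

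By role, the median log2 fold change was lowest for helicase genes (-0.42), of which 11 of 14 lay below 0 and Cdc6, at -2.01, lay furthest. It was -0.14 for the polymerase group (7 of 10 below 0), -0.16 for nucleotide supply (3 of 4) and -0.31 for the checkpoint and anaphase genes (3 of 5). It was 0.02 for replicating chromatin, 0.14 for mitotic cyclins and CDK1, 0.02 for mitotic kinases and 0.03 for spindle and cytokinesis genes. No role was tested as a group, and the interval of every member but Cdc6 spanned 0. Scaling by library size shifted the median over all tested genes by 0.17. The median of the 56 genes then changed sign to 0.08, and its distance from the median of all genes stayed at -0.11.

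**Figure D4:**
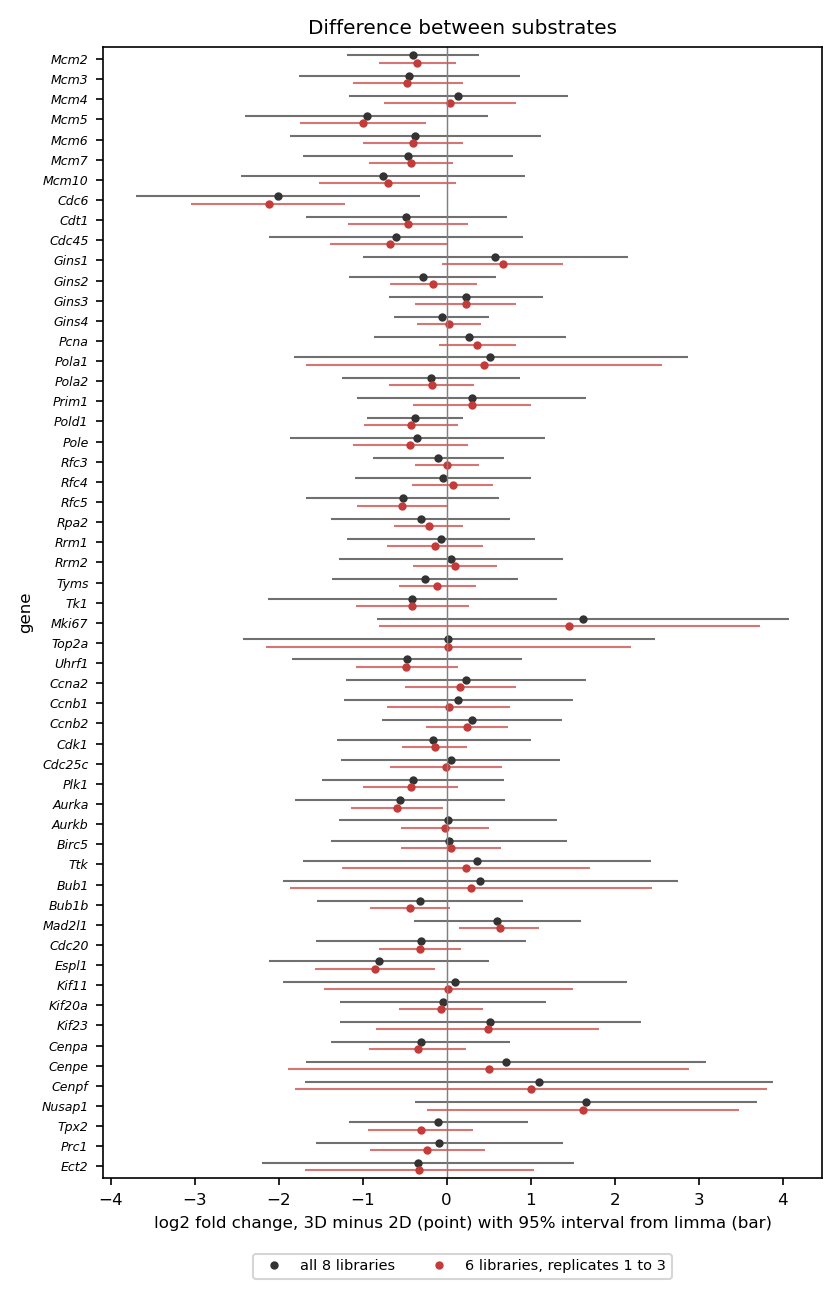
Log2 fold change between the substrates (3D minus 2D, point) with its 95% interval from limma (bar) for the 56 genes, over all 8 libraries (dark) and over the 6 libraries numbered 1 to 3 (red). Intervals shorten without the libraries numbered 4, by the median from 1.31 to 0.62 on either side, and Cdc6 lies furthest below 0.

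The size of the difference depended on which replicate 4 was kept. Without 3D replicate 4 the median log2 fold change of the 56 genes was -0.55 and 51 were below 0, and without 2D replicate 4 it was 0.28 and 11 were below 0. Without both it was -0.12 and 32 were below 0, while the median interval shrank to 0.62 on either side. The median over all tested genes stayed at 0.02 in all 3 cases. In the 6 libraries numbered 1 to 3, the 2D and 3D ranges were separate for 31.9% of all tested genes. Lower on 3D without overlap were the 8 genes Mcm5, Mcm7, Cdc6, Cdc45, Rfc5, Rpa2, Aurka and Bub1b (17.1% of all tested genes lay so), and higher were the 4 genes Gins1, Pcna, Mad2l1 and Nusap1 (14.8%).

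In 2D replicate 2 the 56 genes spread widely. In 11 of them (19.6%) it lay more than 1 (log2) below the mean of 2D replicates 1 and 3, a share near the 15.4% of all tested genes. They were Pola1, Mki67, Top2a, Ttk, Bub1, Kif11, Kif23, Cenpe, Cenpf, Nusap1 and Ect2, with a median of -2.85 and a lowest value of -4.38 for Cenpf. For 20 others, among them Mcm5, Cdt1, Plk1, Espl1 and Cenpa, 2D replicate 2 lay above 2D replicates 1 and 3 (35.7%, against 41.8% of all tested genes). The other 45 genes had a median of 0.03, with none below -0.77. Below 2D replicates 1, 3 and 4 alike, 2D replicate 2 lay for 29 of the 56 (51.8%), against 33.5% of all tested genes. All 56 were highest in 2D replicate 4, which is among the libraries compared there.

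The 11 genes had transcripts of lower GC content, with a median of 43%, against 48.7% for the other 45, and longer exons in sum (median 7.90 against 4.22 kb). Across the 56 genes the value of 2D replicate 2 rose with GC content (Pearson r = 0.62, Spearman rho = 0.73, n = 56 genes), as it did across 11709 tested genes (0.63 and 0.69). Of 15 genes under 44% GC, 9 were among the 11 and 6 were not, and Mad2l1, with the lowest GC content of all 56 (40.1%), had -0.31. After the GC trends were removed, the 11 genes had a median of -1.88 with a range from -3.68 to 0.16, and the other 45 one of 0.15 with a range from -0.48 to 0.98. The 11 were chosen by this same difference, so their lower median follows from the choice. The part of GC content in it was not tested.

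**Figure D5:**
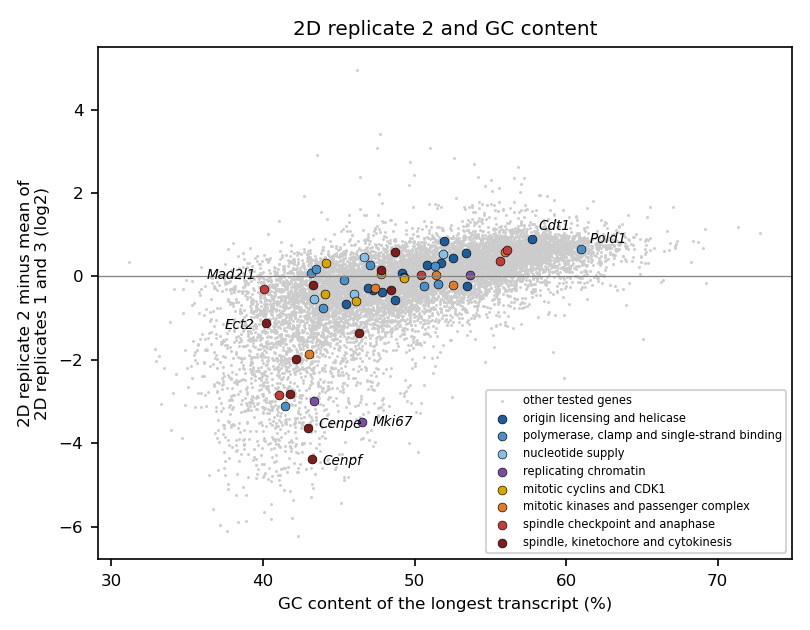
2D replicate 2 minus the mean of 2D replicates 1 and 3, in log2(normalized count + 1) (y axis), against the GC content of the longest transcript in percent (x axis), for the 56 genes (coloured by role) and the other tested genes (grey). Cenpf, Cenpe and Mki67 lie lowest, and Mad2l1, at 40.1% GC, lies near 0.

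Other genes of the same machinery were taken from lists of replication and mitosis genes. Of 37 other replication genes, 0 were higher and 0 lower between the substrates in limma (0 at an unadjusted p under 0.05), against 5.72% called and 24.2% at an unadjusted p under 0.05 over all tested genes, with a median log2 fold change of -0.08. Replicate 4 exceeded replicates 1 to 3 on both substrates for 35 of them, against 17.8% of all tested genes, with median departures of 1.55 and 1.39. The exceptions were the origin recognition subunits Orc3 and Orc4. Of 56 other mitosis genes that were tested, out of 59 listed, 0 passed in either direction (1 at an unadjusted p under 0.05), and replicate 4 was the highest on both substrates for 55, with median departures of 1.81 and 2.02. Hjurp was the exception.

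Among 20 cell-cycle transcription factors and pocket proteins, 1 fell and 0 rose on 3D, against 3.39% and 2.33% of all tested genes. Cdc25a, listed with them, is the phosphatase that activates CDK2 at the start of S phase. It was at 570.5, 619.9, 528 and 865 normalized counts in 2D and at 308, 352, 292 and 429.8 in 3D, or 646 ± 151 against 345 ± 61.7 (SD, n = 4 per group). The difference of -0.89 on the log2 scale had an SE of 0.21 and a limma adjusted p of 0.0389, which lay between 0.00240 and 0.139 under the alternatives. The groups did not overlap, and leaving out any 1 of the 7 libraries other than 3D replicate 4 ended the call, at adjusted p-values in limma of 0.0540 to 0.139. In this list replicate 4 was the highest on both substrates for 11 of 20, against 17.8% of all tested genes.

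E2f1, an activator of S-phase genes, was at 408, 524, 387 and 913 normalized counts in 2D and at 244, 277, 373 and 569.7 in 3D. The repressors E2f7 and E2f8 departed in replicate 4 by 1.40 and 2.04 in 2D and by 1.98 and 1.94 in 3D. Mybl2 (B-Myb) was at 174, 277, 141 and 838 in 2D and at 37.4, 79.5, 82.1 and 358 in 3D, and Foxm1 at 946, 1461, 1122 and 4056 in 2D and at 409, 770.1, 598 and 2289 in 3D. These activators of mitotic genes were highest in replicate 4 of their substrate, like the 56 genes, with log2 fold changes of -1.49 and -0.97 (limma adjusted p = 0.252 and 0.347). The pocket protein Rbl1 (p107) departed by 1.49 and 1.46. Rbl2 (p130), which is abundant in quiescent cells, departed by -0.10 and 0.06 and Rb1 by 0.01 and 0.46, so that these pocket proteins did not share the pattern. Rb1 differed by 1.37 between substrates with an SE of 0.48 (limma adjusted p = 0.127), and its lowest library was 2D replicate 2 (13.1).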

How the data were processed

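The authors deposited 1 table per library with a normalized signal per gene symbol. Per the submitters' processing notes, HTSeq 0.6.1p1 counted reads on mm10 and DESeq2 was used; for the aligner, annotation and strand setting the status is: not given in the sources used here. In every library 100% of the values were whole multiples of 1 read (tolerance 0.001 reads), and each divisor equalled a DESeq2-type size factor (largest relative difference 3.3e-09), so reads were recovered.

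limma 3.58.1 (R 4.3.3) was fitted on log2(normalized count + 1) with a trended, robust prior over genes with at least 10 normalized counts in at least 4 libraries, 2D against 3D without covariates. Fold changes on this scale understate low genes. P-values were adjusted by Benjamini-Hochberg over all tested genes at 0.05. edgeR 4.0.16 (on recovered reads, 321 higher and 376 lower over all genes) and DESeq2 1.42.0 were alternatives, as were other scalings, filters, pseudocounts, a replicate block and leaving out libraries. GC correction (lowess, span 30%), combined block fits and the grouping of genes by their value in 2D replicate 2 were added after seeing the data. On simulated data limma recovered 22.7% of 2-fold and 81.25% of 4-fold changes among 11820 genes, with 11 false calls. Each gene was drawn independently, with no shift shared by the libraries numbered 4, and the changed genes were picked from all tested genes. The median SE was 0.58 for the 56 genes and 0.25 over all tested genes, so these rates do not describe the 56. Gene models came from GENCODE M21 (GRCm38).

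The members, lists and tests were chosen with earlier results of these data known. Named in full were the 10 members with the smallest adjusted p, the 5 with the largest and the 5 with the smallest replicate 4 departure, and Mki67, Pcna, Top2a, Ccnb1 and Cdk1. Others are named as examples chosen after their values were seen. From the other lists, genes past the threshold and E2f1, E2f7, E2f8, Foxm1, Mybl2, Rbl1, Rbl2 and Rb1 were named.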

Additional observations from a re-analysis of the deposited data

Results flagged for a closer look

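Within a substrate, a library whose gap to its nearest neighbour exceeded Dixon's 95% critical share of the range of the 4 libraries, in log2(normalized count + 1), was picked out for a closer look. Chance alone picks out about 1 group in 20. The libraries numbered 4 had been singled out already and the genes vary together, so these values are a description and support nothing further. For 2D replicate 4 this held for 13 of the 56 genes, each time on the high side, and for 3D replicate 4 for 4 genes. Over all tested genes it held on the high side for 1.37% in 2D replicate 4 and for 1.89% in 3D replicate 4. In normalized counts, 2D replicate 4 stood at 946 for Cdc45, 202 for Gins1, 1271 for Pola2, 1194 for Rfc3, 914 for Rfc4 and 1217 for Rpa2. It stood at 4425 for Uhrf1, 1960 for Ccnb2, 6447 for Cdk1, 5369 for Aurka, 1246 for Aurkb, 1929 for Birc5 and 2910 for Bub1b. For 3D replicate 4 the genes were Gins3 (333), Pcna (1057), Rpa2 (801) and Nusap1 (1147). The median over the 56 genes of the deviation from the gene's mean, in log2, was picked out as well, at 1.44 in 2D replicate 4. In all these cases the library numbered 4 was the high one, and no other library was picked out for any of the 56 genes.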

How the results depend on the processing

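The replicate 4 departure kept its size. Its median ranged from 1.77 to 1.87 in 2D and from 1.74 to 2.12 in 3D when 1 of replicates 1 to 3 was left out. No alternative scaling, pseudocount, reference or GC correction moved it by more than the spread between replicates 1 to 3.

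Calls among the 56 genes moved from 0 lower to 1 (Cdc6) without 3D replicate 4 or without both libraries numbered 4, with a range of 0 to 1 over single libraries left out. Their median log2 fold change ranged from -0.55 to 0.28. Whether replicate numbers pair the libraries was mixed. Deviations from the group means correlated at -0.17, 0.37, 0.25 and 0.81 for numbers 1 to 4, and 5 of 8 libraries correlated best with their own number, so the numbers were not taken as pairs. With the replicate block 16 of the 56 had an unadjusted limma p under 0.05, against 3633 of all 11820 tested genes. In that fit 3 were lower (Cdc6, Mcm5 and Espl1), against 742 of all tested genes. Both shares lay near those of all genes. The same 3 were lower in edgeR with the block (605 of all tested genes). They were also lower with the block and the GC trend removed (1077 of all tested genes), where 1 was higher (Nusap1). Of the other replication genes 1 was lower with the block (2 with the GC trend removed). Of the other mitosis genes 1 was higher and 1 lower (1 higher in edgeR). Of the transcription factor list 4 were lower (3 in edgeR, 5 with the GC trend removed). The last list had 0 lower with library size or without a filter, and 0 to 1 without 1 library.

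Over all genes 275 were higher and 401 lower. These counts became 499 higher with library size, 708 and 871 with DESeq2, 663 and 742 with the replicate block, 681 and 605 with the block in edgeR, 481 and 605 with the GC trend removed, 995 and 1077 with that and the block, and 177 higher without both libraries numbered 4. Without 1 library they ranged from 43 to 276 and from 103 to 370.

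No gene whose sign changed was past the threshold. Top2a was at -0.13 in edgeR, -0.15 in DESeq2 and -0.19 with the GC trend removed (also -0.19 with the block). Ccnb1 was at -0.05 with the GC trend removed (-0.05 with the block). With library size Gins4, Rfc3 and Cdk1 were at 0.11, 0.07 and 0.02, and without both libraries numbered 4 Gins4 and Rfc3 were at 0.03 and 0.00. Without 1 library the ranges were -0.12 to 1.83 for Cenpf, -0.89 to 0.78 for Top2a, -0.39 to 1.19 for Pola1, -0.45 to 1.05 for Bub1, -0.20 to 0.17 for Gins4, -0.33 to 0.23 for Rfc3, -0.52 to 0.08 for Gins2, -0.10 to 0.74 for Pcna, -0.40 to 0.56 for Ccnb1, -0.58 to 0.29 for Cdk1 and -0.22 to 0.77 for E2f8. The causes were not tested. Depth limits low genes such as Cenpf, with 4 reads in 2D replicate 2.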
